A study of Mus musculus with 2 samples.

Results

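Semaphorins are secreted or membrane-bound guidance proteins, plexins are their signalling receptors, and neuropilins are co-receptors that most secreted semaphorins need to reach a plexin. The mouse genes of these families were taken by symbol, and all 31 were found among the 43346 genes with an Ensembl identifier in the tables: 20 semaphorins, 9 plexins and 2 neuropilins. RNA came from forebrains of B6NCrl mouse embryos at 16.5 days of gestation, male and female pooled and labelled healthy, with no genotype or treatment contrast. The series holds 1 group of 2 biological replicates, and each library was made from 10 ng of total RNA longer than 200 nt, with spike-in RNAs added. Replicate 2 pooled 41 embryos, and the number in the pool of replicate 1 is not given in the labels. Whole forebrain holds cortex, basal forebrain and diencephalon together, so a level is an average over neurons, progenitors, vessels and the membranes left on the tissue. With 1 group no conditions could be compared and no p-value was computed; values are given for each library and as mean ± SD (n = 2), and a log2 ratio between libraries is replicate 1 over replicate 2.

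A semaphorin binds a plexin through the sema domain that both carry, and the plexin's cytoplasmic part then acts on small GTPases, the actin cytoskeleton and microtubules of the growth cone. Class 3 semaphorins are secreted, classes 4 to 6 span the membrane, and Sema7a is tethered by a lipid anchor. In the embryonic forebrain the system is known for repelling and sorting axons, for steering migrating neurons and for shaping vessels, and neuropilins also bind vascular endothelial growth factors (VEGF).

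The tables held 31211128 estimated reads on genes in replicate 1 and 26957198 in replicate 2. All 12 fixed telencephalon markers exceeded 10 TPM, the length-scaled share of all transcripts, in both libraries, led by Neurod6, Dlx1 and Lmo3, and 0 of 11 midbrain and hindbrain markers reached 1 TPM in both, 4 of these having no count in either library. The pools differed in their regional and cell type markers. Hypothalamus markers summed to 53.8 and 16.9 TPM in replicates 1 and 2, and all 7 with enough counts were higher in replicate 1. Summed levels of meningeal fibroblast markers were 455 and 773 TPM in replicates 1 and 2, and all 9 were higher in replicate 2.

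Most of the family was transcribed. In both libraries 29 of 31 members reached 1 TPM, a level that 60.7% of 21474 protein-coding genes reached, and 19 reached 10 TPM, as did 40.9% of protein-coding genes. The median member had 17.9 TPM, against 5.05 TPM for the median protein-coding gene. Levels ran from Plxnb2, 1837th among protein-coding genes, down to Plxnb3, which was near 0. The summed level of plexins was 316 and 311 TPM in replicates 1 and 2, that of semaphorins 293 and 267 TPM, and that of the neuropilin pair 106 and 115 TPM. Plexins over semaphorins gave a log2 ratio of summed TPM of 0.17 ± 0.08, which did not exceed 3 SD. Fine steps in the order of levels were not resolved: of 30 neighbouring pairs in that order, 10 had library values that did not overlap, and 20 overlapped.

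**Figure D1:**
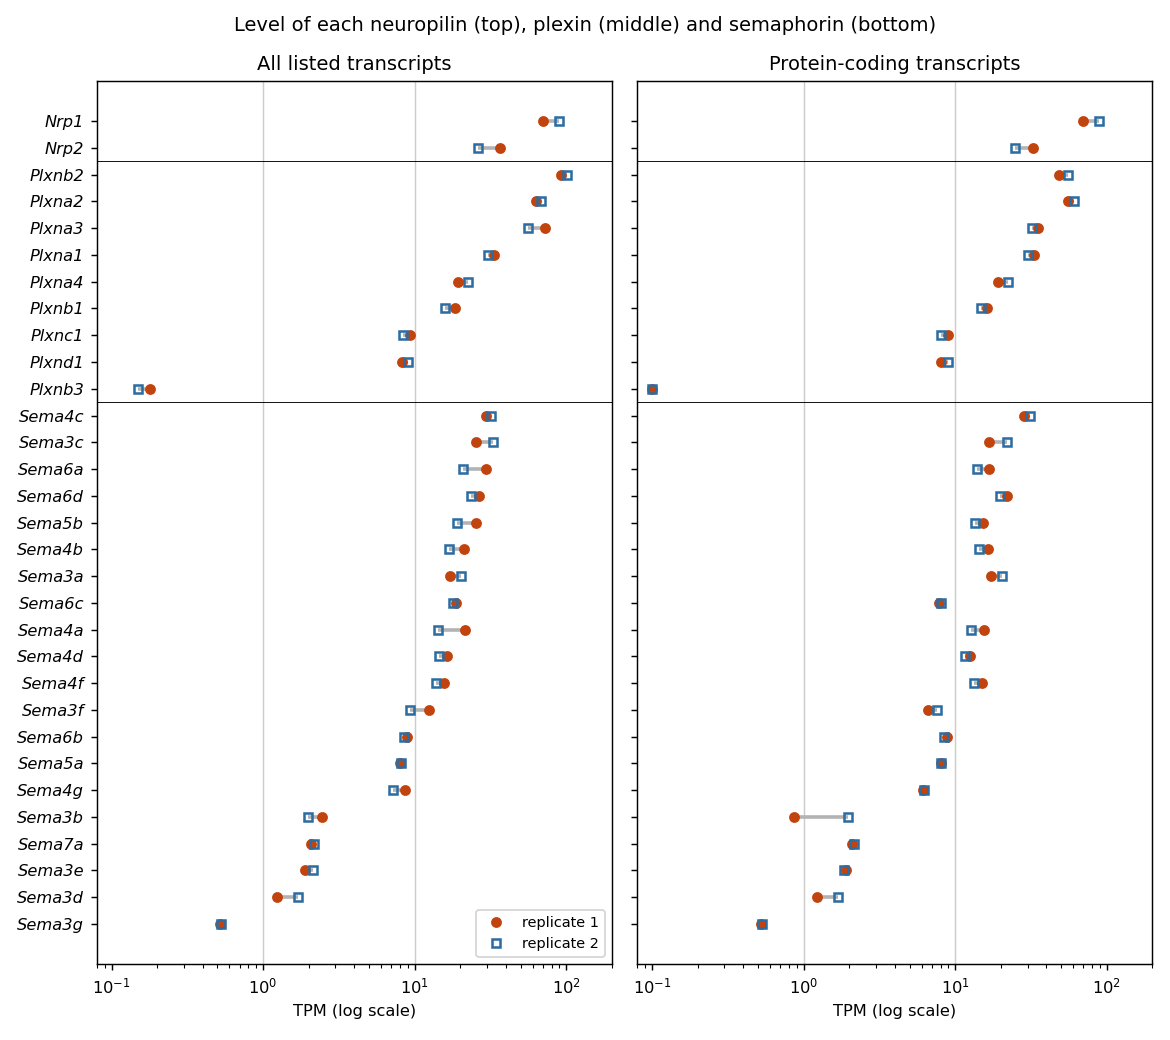
TPM of each member on a log scale in replicate 1 (filled circles) and replicate 2 (open squares), with all listed transcripts summed on the left and protein-coding transcripts alone on the right; grey lines join the libraries and vertical lines mark 1 and 10 TPM. Plxnb2 and Nrp1 lie highest on the left, Nrp1 lies highest on the right, and Plxnb3, whose coding level is 0, is drawn at the left end of the right panel.

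Among the co-receptors, Nrp1 was the more abundant. Nrp1, which pairs with A-type plexins to receive Sema3a and also binds VEGF (chromosome 8, 128358604 to 128503363, mm10), had 69.8 TPM in replicate 1 and 88.9 TPM in replicate 2 (79.4 ± 13.5). Nrp2, the main co-receptor of Sema3f (chromosome 1, 62703285 to 62818695), had 36.5 and 26.3 TPM in replicates 1 and 2 (31.4 ± 7.23). The neuropilins therefore lay on the same side in both libraries, but the log2 ratio of Nrp1 over Nrp2 was 0.94 in replicate 1 and 1.76 in replicate 2, a spread that left the mean of 1.35 ± 0.58 within 3 SD. The genes also differed between libraries in opposite directions. Nrp1 had 7609 and 8141 counts in replicates 1 and 2, a scaled log2 ratio of -0.33 (95% counting interval -0.38 to -0.29), whereas the 3758 and 2334 counts of Nrp2 gave 0.45 (0.38 to 0.53).

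Nrp2 is spliced to either of 2 coding ends, and the ends are shown because they decide whether the protein carries the tail that, in Nrp1, binds the PDZ domain of the adaptor Gipc1. The last 60 coding bases before the stop codon follow, from GENCODE M21 transcripts (GRCm38, the assembly of mm10), with the final 9 in capitals; they lie at chr1:62815575-62815634 (distal end), chr1:62795927-62795986 (proximal end) and chr8:128502752-128502811 (Nrp1), all on the plus strand.
Nrp2 distal coding end: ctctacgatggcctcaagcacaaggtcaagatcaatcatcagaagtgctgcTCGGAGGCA
Nrp2 proximal coding end: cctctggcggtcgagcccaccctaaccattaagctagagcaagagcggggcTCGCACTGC
Nrp1 coding end: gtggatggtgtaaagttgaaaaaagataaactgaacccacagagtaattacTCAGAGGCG
The distal end of Nrp2 was identical to Nrp1 at 7 of these 9 bases, and the proximal end at 3. Transcripts with the distal end, the form known as Nrp2a, held 64.5% of coding Nrp2 TPM in replicate 1 and 66.2% in replicate 2 (65.4 ± 1.24). The proximal end, known as Nrp2b, held 35.5% and 33.8%.

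Just before these ends, 2 optional segments can be added to the stretch next to the membrane. They are shown in capitals with 21 flanking coding bases on each side, and lie at chr1:62786302-62786316 and chr1:62812534-62812584.
Nrp2 15-base segment: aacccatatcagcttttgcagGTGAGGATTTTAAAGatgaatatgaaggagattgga
Nrp2 51-base segment: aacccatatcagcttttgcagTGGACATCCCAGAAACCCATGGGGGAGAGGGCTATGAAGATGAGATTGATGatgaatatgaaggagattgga
Within transcripts of the proximal end, the 15-base segment was present in 83.8% of TPM in replicate 1 and 85.4% in replicate 2. Within those of the distal end it was present in 4.54% and 11.4%. By these estimates the short segment lay mostly on proximal-end messages. The 51-base segment was present in 23.4% and 36.1% of distal-end TPM in replicates 1 and 2. These shares come from the authors' model: for Nrp2-203, the distal form with the 15-base segment alone, the deposited credibility interval, whose level is not stated, ran from 0 to 6.23 TPM in replicate 1 and from 0.0796 to 5.17 TPM in replicate 2. Nrp1 has 1 listed transcript, so its forms could not be separated.

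A-type plexins, the usual partners of neuropilins, were all above 10 TPM. Plxna2, a receptor of Sema6a and a partner of neuropilins (chromosome 1, 194618218 to 194816869), had 63.2 and 68.0 TPM in replicates 1 and 2 (65.6 ± 3.38). Plxna3, which transmits Sema3f signals with Nrp2 (chromosome X, 74329066 to 74344689), had 72.8 and 56.0 TPM (64.4 ± 11.9). These ranges overlapped, so the order of Plxna2 and Plxna3 was not resolved. Plxna1, a receptor of Sema6d, had 33.3 and 30.2 TPM (31.7 ± 2.16). Plxna4, which transmits Sema3a and class 6 signals, was the lowest at 19.2 and 22.4 TPM (20.8 ± 2.30). Plxna4 lay below Plxna2 by a log2 ratio of -1.66 ± 0.09, and Plxna1 below Plxna3 by -1.01 ± 0.17. On coding transcripts alone Plxna1 over Plxna3 was -0.08, close to equality. Of the A-type genes, Plxna1 and Plxna3 had more scaled counts in replicate 1, and Plxna2 and Plxna4 more in replicate 2, with log2 ratios from -0.21 to 0.17.

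The B-type plexins, which carry a PDZ-binding end and couple to RhoA guanine nucleotide exchange factors, were uneven. Plxnb2, a receptor of Sema4c that is active in neural progenitors (chromosome 15, 89155549 to 89180788), had the highest TPM of the family at 91.6 in replicate 1 and 101 in replicate 2 (96.5 ± 6.91). Plxnb1, the receptor of Sema4d, had 18.5 and 15.8 TPM (17.2 ± 1.87), a log2 ratio of Plxnb2 over Plxnb1 of 2.49 ± 0.26. On coding transcripts alone that ratio was smaller, at 1.74 ± 0.24. Plxnb3, known from oligodendrocytes and as a receptor of Sema5a, had 17 and 12 counts, or 0.18 and 0.15 TPM. By maximum likelihood all were assigned to a retained-intron transcript and none to its coding transcript. With the authors' posterior means the coding transcript Plxnb3-201 held 14.5% and 12.6% of Plxnb3 TPM in replicates 1 and 2. This split was therefore not resolved. Plxnc1, the receptor of Sema7a, had 9.34 and 8.34 TPM in replicates 1 and 2 (8.84 ± 0.71). Plxnd1, the receptor of Sema3e in vessels and in some neurons, had 8.27 and 9.01 TPM (8.64 ± 0.52). The order of Plxnc1 and Plxnd1 turned between the libraries. Summed A-type over summed B-type TPM gave a log2 ratio of 0.68 ± 0.13, and 1.09 ± 0.06 over coding transcripts.

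Of the secreted class 3 semaphorins, Sema3c was the highest over all listed transcripts, Sema3a followed and Sema3f came next, with the other 4 below 2.5 TPM. Sema3c, an attractant for cortical axons that signals through both neuropilins (chromosome 5, 17574281 to 17730268), had 25.3 and 33.0 TPM in replicates 1 and 2 (29.1 ± 5.42). Sema3a, the classical repellent of cortical and sensory axons (chromosome 5, 13125414 to 13602565), had 17.1 and 20.4 TPM (18.7 ± 2.28). Both were higher in replicate 2, and their ranges did not overlap each other. On coding transcripts alone Sema3c had 16.7 and 21.8 TPM, a range that included Sema3a, so their order was not resolved on that scale. Sema3f, a repellent that acts through Nrp2 (chromosome 9, 107681500 to 107710475), had 12.5 and 9.38 TPM (10.9 ± 2.20), in the opposite order, but 6.65 and 7.62 TPM on coding transcripts. Sema3b, a ligand of both neuropilins, had 2.43 and 1.97 TPM, a mean of 2.20 that became 4.07 TPM with the authors' posterior means and 1.42 TPM on coding transcripts. Sema3e, which can bind Plxnd1 without a neuropilin, had 1.89 and 2.14 TPM. Sema3d, a neuropilin ligand studied in heart and axon guidance, had 1.23 and 1.69 TPM, and Sema3g, a ligand of Nrp2, had 43 and 37 counts, or 0.52 and 0.53 TPM. Sema3d, Sema3a, Sema3e and Sema3c lie in that order on chromosome 5 between 12383385 and 17730268, so members of low and of higher level alternate there.

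All 6 class 4 semaphorins, membrane proteins of neural and immune cells, exceeded 7 TPM in both libraries. Sema4c, the ligand of Plxnb2 (chromosome 1, 36548639 to 36558349), was the highest semaphorin by mean level, with 29.5 and 31.6 TPM in replicates 1 and 2 (30.6 ± 1.53), although the range of Sema3c included it. Sema4b, which like Sema4c and Sema4f has a PDZ-binding tail, had 21.1 and 16.9 TPM (19.0 ± 3.01). Sema4a, known from T cells and the retina, had 21.6 and 14.2 TPM (17.9 ± 5.22), one of the widest gaps between the libraries. Sema4d, the ligand of Plxnb1 in mouse brain, had 16.3 and 14.4 TPM (15.3 ± 1.32). Sema4f had 15.5 and 13.8 TPM (14.7 ± 1.22), and Sema4g 8.59 and 7.21 TPM (7.90 ± 0.98). The summed level of class 4 was 113 and 98.1 TPM, and that of class 3 was 61.0 and 69.0 TPM. Class 4 over class 3 gave a log2 ratio of 0.70 ± 0.27, within 3 SD.

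Class 5 semaphorins, which carry thrombospondin repeats, were represented by Sema5b and Sema5a, both known as repellents of retinal neurites through Plxna1 and Plxna3. Sema5b had 25.3 and 19.0 TPM in replicates 1 and 2 (22.1 ± 4.45), and Sema5a had 8.04 and 8.08 TPM (8.06 ± 0.03). Class 6 semaphorins bind A-type plexins without a neuropilin and can also act as receptors. Sema6a, a ligand of Plxna2 and Plxna4, had 29.5 and 20.95 TPM (25.2 ± 6.03). Sema6d, a ligand of Plxna1 (chromosome 2, 124089969 to 124667770), had 26.7 and 23.4 TPM (25.1 ± 2.38), and the ranges of these genes overlapped. On coding transcripts alone they did not: Sema6a had 16.7 and 13.9 TPM (15.3 ± 1.99) and Sema6d 22.0 and 19.8 TPM (20.9 ± 1.54). Sema6c had 18.6 and 17.8 TPM (18.2 ± 0.59), and Sema6b, a ligand of Plxna4, had 8.88 and 8.49 TPM (8.69 ± 0.28). Sema7a, which promotes axon growth through integrins and binds Plxnc1, was low at 2.07 and 2.16 TPM (2.12 ± 0.06).

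Ligand and receptor messages of 1 tissue were compared within each library for 16 fixed pairs, so that the scaling of a library cancels. A pair was called apart where its sign was shared by both libraries and its mean log2 ratio was larger than 3 SD, which 14 of 16 pairs met. On coding transcripts alone 14 of 16 met it as well. The rule weighs a ratio against its spread and not its size: Plxna1 over Plxna3 met it on coding transcripts at -0.08. The share of other gene pairs that would meet it was not computed, so the count is not a trait of the family. In 11 of the 12 ligand and receptor pairs the mean level of the receptor or co-receptor was higher, the exception being Sema6a over Plxna4, which was not apart. With Sema4d-204 added to Sema4d this held in 10 of 12, and Sema4d over Plxnb1 was the other exception. These counts depend on which partners were fixed. Plxnb3, named above as a receptor of Sema5a, was not paired with it and had 0.18 and 0.15 TPM in replicates 1 and 2. Sema5a was higher, with 8.04 and 8.08 TPM.

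In the fixed pairs, Sema3a and Sema3c lay well below Nrp1, and Sema3f lay well below Nrp2. Sema3c was not paired with Nrp2, its other co-receptor. Sema3c had 25.3 and 33.0 TPM in replicates 1 and 2, and Nrp2 had 36.5 and 26.3 TPM, so their order turned between the libraries. Sema3a over Nrp1 had a log2 ratio of -2.03 in replicate 1 and -2.13 in replicate 2 (-2.08 ± 0.07), and Sema3c over Nrp1 had -1.46 and -1.43 (-1.45 ± 0.02). Sema3f over Nrp2 had -1.55 and -1.48 (-1.52 ± 0.04), although the TPM of each gene over all listed transcripts was higher in replicate 1. On coding transcripts Sema3f over Nrp2 was -2.30 and -1.71 (-2.00 ± 0.42), a wider spread, and Sema3c over Nrp1 was -2.04 ± 0.03. Sema3e over Plxnd1 had -2.12 and -2.07 (-2.10 ± 0.04). Membrane-bound ligands ranged more widely. Sema4d was close to Plxnb1, with a log2 ratio of -0.16 ± 0.03, and the direction of this pair turned to 0.15 when the Sema4d transcript listed under a separate gene, Sema4d-204, was added to Sema4d. Sema6d was close to Plxna1, with -0.34 ± 0.04. Sema4c over Plxnb2 was -1.66 ± 0.03, and -0.81 on coding transcripts. Sema5a over Plxna1 was -1.97 ± 0.10, Sema5b over Plxna3 -1.54 ± 0.02 and Sema7a over Plxnc1 -2.06 ± 0.16. Sema6a over Plxna2 was -1.40 ± 0.42. Sema6a over Plxna4 was 0.62 in replicate 1 and -0.10 in replicate 2, and its mean of 0.26 ± 0.51 became -0.44 on coding transcripts. These ratios compare messages over a whole region and not the amounts of protein on any cell.

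**Figure D2:**
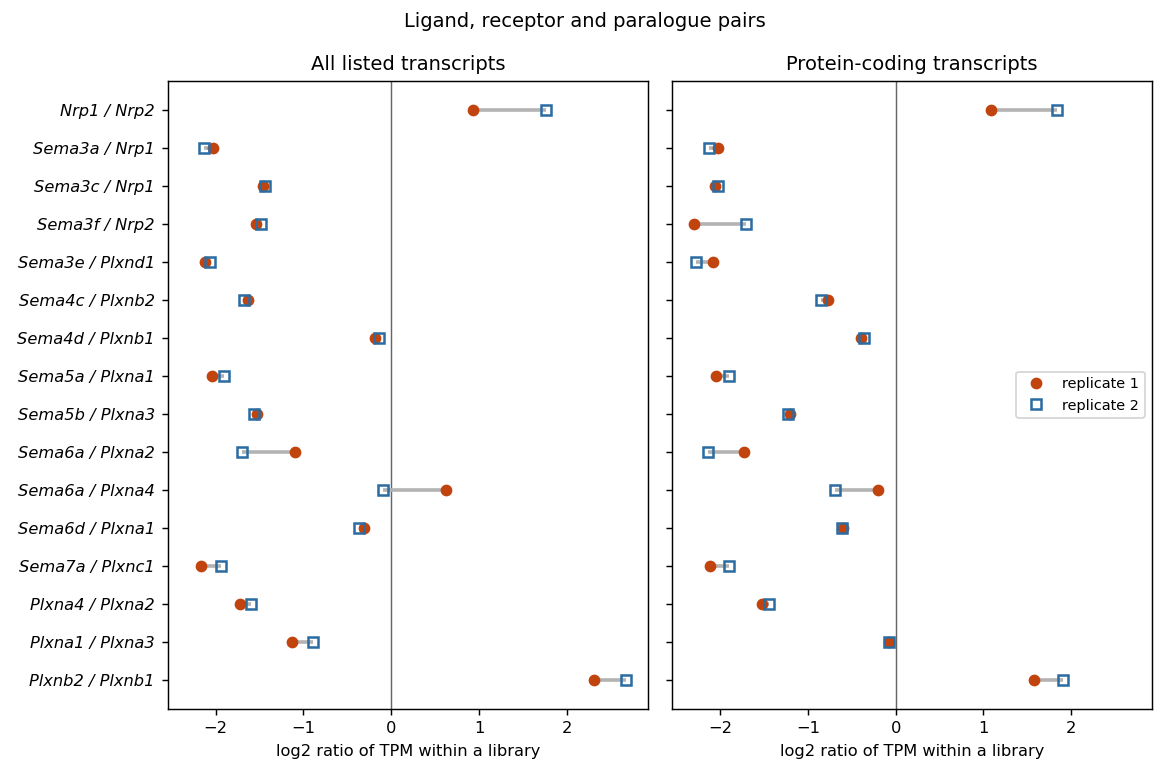
Log2 ratio of TPM, first gene over second, of the 16 fixed pairs in replicate 1 (filled circles) and replicate 2 (open squares), for all listed transcripts (left) and protein-coding transcripts (right); grey lines join the libraries and the vertical line marks equal levels. Points left of that line have the second gene higher, and Sema6a over Plxna4 is the pair whose libraries lie on both sides of it in the left panel.

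The levels above sum every listed transcript of a gene. Part of them came from transcripts that are not annotated as coding, among them short, intron-retaining and nonsense-mediated decay transcripts. There were 24 members with several listed transcripts and a level of 1 TPM or above, of which 6 had at least 25% of their TPM on such transcripts in both libraries, near the 24.7% of 9540 protein-coding genes that did. These were Sema6c, Plxna3, Plxnb2, Sema6a, Sema5b and Sema3c. In Plxnb2 the coding transcript Plxnb2-202 held 53.1% of TPM in replicate 1 and 52.1% in replicate 2, and Plxnb2-205, a processed transcript of 841 bases, held 38.9% and 38.6%. Plxna3 had 51.7% and 43.1% of its TPM on transcripts not annotated as coding, most of it on retained introns, and Sema6c had 57.9% and 54.6%. In Sema6c the nonsense-mediated decay transcript Sema6c-212, of 3936 bases, held 16.5% and 26.4% of TPM in replicates 1 and 2. Because TPM is per length, a short transcript raises it more per read than a long one.

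Over coding transcripts alone the order at the top changed, and 8 of the 29 members at 1 TPM or more had levels lower by over 1.5 times: the 6 above, Sema3b and Sema3f. The share of all protein-coding genes with so large a drop was not computed, so this count is not a trait of the members. Nrp1 led with 79.4 ± 13.5 TPM, followed by Plxna2 with 58.0 ± 4.09, Plxnb2 with 52.1 ± 4.97 and Plxna3 with 33.5 ± 2.32 TPM. The ranges of Plxna2 and Plxnb2 overlapped, so their order was not resolved. Nrp1 has 1 listed transcript, a coding one, so its level could not fall on this scale. The median member had 14.2 TPM, and 18 of 31 reached 10 TPM in both libraries, as did 38.0% of protein-coding genes. Of 21 members with more than 1% of TPM on transcripts not annotated as coding, 19 had the larger percent in replicate 1, as did 68.1% of 7001 protein-coding genes. In Sema3b, with 101 and 88 counts, that percent was 64.6% in replicate 1 and 0 in replicate 2. The next largest gaps were in Sema3f, with 46.8% in replicate 1 and 18.8% in replicate 2, and Sema4a, with 28.2% and 10.0%.

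**Figure D3:**
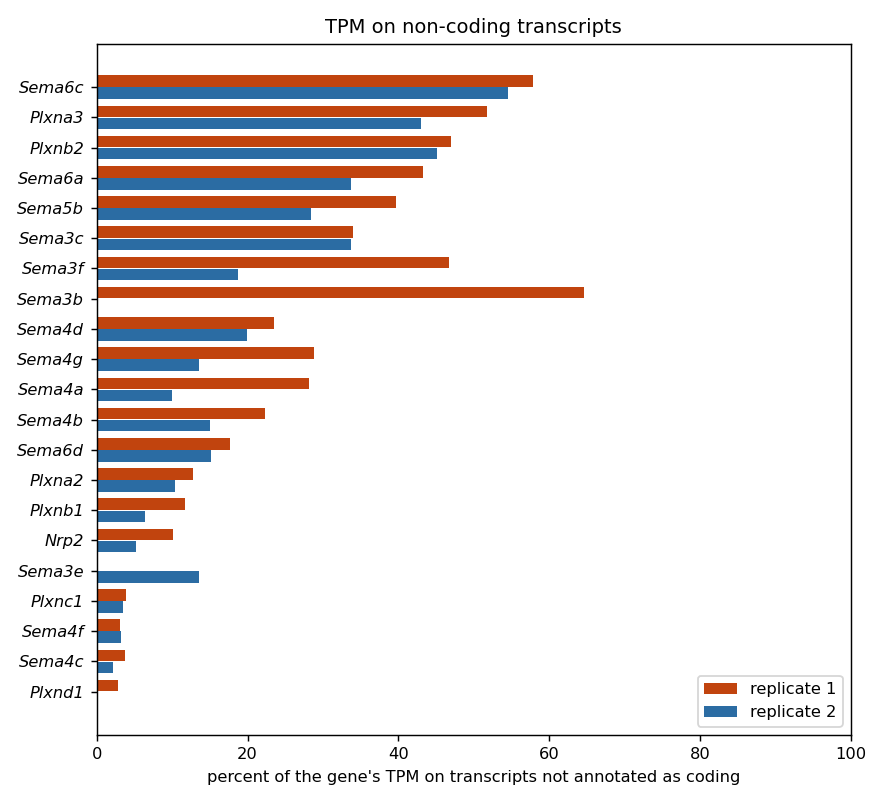
Percent of each member's TPM on transcripts that are not annotated as protein-coding, in replicate 1 (upper bar) and replicate 2 (lower bar), for the 21 members at 1 TPM or more in which it exceeded 1% in either library. The upper bar is the longer in 19 members, and Sema6c, Plxna3 and Plxnb2 stand at the top with more than 40% in both libraries.

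Leading transcripts were the same in both libraries for 22 of the 24 members at 1 TPM or more, against 89.9% of protein-coding genes. The exceptions were Sema3b, with 101 and 88 counts to divide among 14 listed transcripts, and Sema4a. In Sema4a the leading transcript was Sema4a-214 in replicate 1, with 30.9%, and Sema4a-213 in replicate 2, with 61.4%. These transcripts start at different RefSeq promoters, and the share of coding TPM starting within 50 bases of the first was 43.0% and 14.1% in replicates 1 and 2, against 38.2% and 68.2% for the second. The deposited credibility intervals of these transcripts overlapped between the libraries, with 0.36 to 9.05 and 0.0019 to 4.60 TPM for Sema4a-214 in replicates 1 and 2, and 2.10 to 10.9 and 2.49 to 8.77 TPM for Sema4a-213. On the authors' posterior means Sema4a-213 led in both libraries, with 24.8% and 30.8%, so the change of leading transcript and of start was not resolved. Of the 25 members with several listed transcripts, 9 had a single transcript holding at least 80% in both libraries, among them Plxna2, Plxnb1, Plxnc1, Plxnd1 and Sema4f. How many of all genes had such a transcript was not computed, so the count is not a trait of the members.

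Sema6d has optional coding segments, found by comparing its annotated coding transcripts, and they are shown because they set which protein form the message encodes. They are in capitals with 21 flanking bases, at chr2:124660244-124660282, chr2:124660705-124660761 and chr2:124662204-124662371, plus strand.
Sema6d 39-base segment: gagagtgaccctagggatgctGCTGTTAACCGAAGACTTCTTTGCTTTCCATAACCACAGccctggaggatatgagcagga
Sema6d 57-base segment: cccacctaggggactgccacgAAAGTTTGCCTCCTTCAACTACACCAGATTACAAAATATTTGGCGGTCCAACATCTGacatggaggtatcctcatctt
Sema6d 168-base segment: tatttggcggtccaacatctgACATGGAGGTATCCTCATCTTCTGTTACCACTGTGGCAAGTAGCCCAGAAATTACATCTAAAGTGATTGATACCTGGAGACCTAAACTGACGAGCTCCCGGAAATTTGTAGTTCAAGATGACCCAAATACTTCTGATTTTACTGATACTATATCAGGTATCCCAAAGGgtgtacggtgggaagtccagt
The 39-base segment was in 15.9% of coding Sema6d TPM in replicate 1 and 13.3% in replicate 2. The 57-base segment was in 38.8% and 43.0%, and the longest segment, which some transcripts hold in a form of 156 bases, in 33.9% and 41.7%. No optional segment was therefore in most of the Sema6d message. Sema5b had an 87-base coding segment (chromosome 16, 35660071 to 35660157) in 27.1% and 25.3% of its coding TPM.

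**Figure D4:**
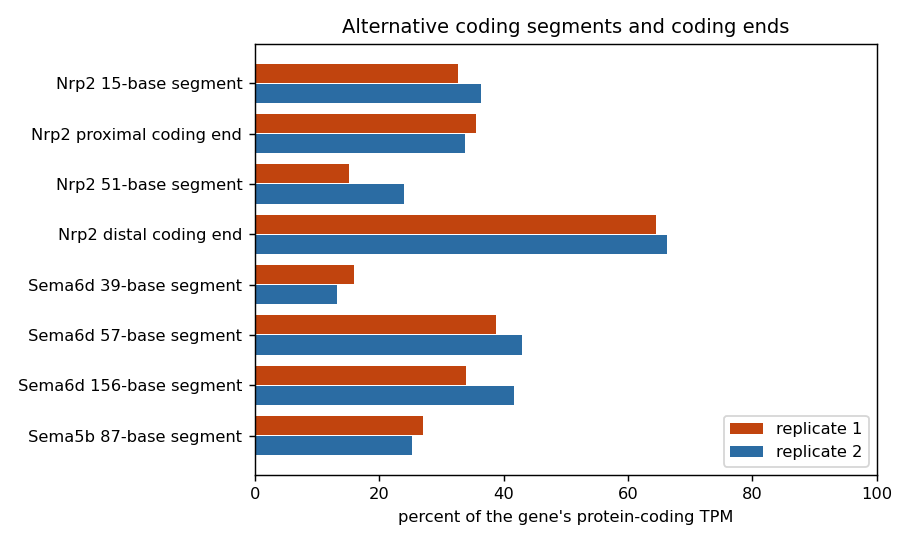
Percent of a gene's protein-coding TPM that holds each optional coding segment or coding end of Nrp2, Sema6d and Sema5b, in replicate 1 (upper bar) and replicate 2 (lower bar). The distal end of Nrp2 is near 65% in both libraries, and the Sema6d segments lie below 50%.

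Sema4c, the highest semaphorin by mean TPM, was transcribed from a pair of RefSeq starts on the minus strand of chromosome 1, and their promoters are shown because both were in use. Each runs from 250 bases before the start to 50 after it (RefSeq, GRCm38.p6), at chr1:36558332-36558631 (upstream) and chr1:36557508-36557807 (downstream), with GGGCGG or its complement CCGCCC, the GC box bound by Sp1 family factors, in capitals.
Sema4c upstream promoter: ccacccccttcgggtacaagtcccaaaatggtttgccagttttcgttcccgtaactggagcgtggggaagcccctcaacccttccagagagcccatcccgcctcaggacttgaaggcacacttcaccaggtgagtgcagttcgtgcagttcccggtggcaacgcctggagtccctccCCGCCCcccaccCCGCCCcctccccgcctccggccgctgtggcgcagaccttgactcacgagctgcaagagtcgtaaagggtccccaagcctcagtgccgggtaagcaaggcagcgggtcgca
Sema4c downstream promoter: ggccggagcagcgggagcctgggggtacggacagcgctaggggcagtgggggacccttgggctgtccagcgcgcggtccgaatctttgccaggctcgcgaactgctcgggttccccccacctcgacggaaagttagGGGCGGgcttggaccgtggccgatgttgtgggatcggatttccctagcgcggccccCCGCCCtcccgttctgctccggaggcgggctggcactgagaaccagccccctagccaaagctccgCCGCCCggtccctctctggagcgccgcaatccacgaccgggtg
Transcripts starting within 50 bases of the upstream start held 58.9% of coding Sema4c TPM in replicate 1 and 62.0% in replicate 2, and those of the downstream start 37.7% and 38.0%. The deposited credibility interval of Sema4c-201, the leading transcript of the upstream start, ran from 6.53 to 12.8 TPM in replicate 1 and from 9.62 to 17.9 TPM in replicate 2. Across the family, 26 of 31 members had 37 promoters in the RefSeq table, and 27 of these held GGGCGG on either strand, against 35.7% of all 32851 promoters and 62.6% of 13152 promoters of protein-coding genes detected at 1 TPM. TATAAA on either strand was in 0 of 37, against 13.6% of all and 6.87% of those of detected genes. Such matches describe the letters in these windows only. Sema3b, Sema3f, Sema6a, Plxna1 and Plxna4 have no entry.

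Between the libraries no member differed 2-fold. Scaled counts were compared for the 29 members whose counts averaged 50 or more, and a gene was called when it differed at least 2-fold with a counting interval that excluded equality. Of all 13929 genes tested, 1.37% were called, and 0 of 29 members were. All 29 ratios lay inside the central 95% of all tested genes, from -0.53 to 0.75. The counting interval alone excluded equality for 12 members higher in replicate 1, as for 24.1% of all genes, and for 7 higher in replicate 2, as for 26.5% of all genes. These intervals cover counting error only, and the coefficient of biological variation over all genes was 12.3%.

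The members higher in replicate 1 were Nrp2, Plxna1, Plxna3, Plxnb1, Plxnc1, Sema4a, Sema4b, Sema4f, Sema4g, Sema5b, Sema6a and Sema6d. Sema4a had 1046 and 645 counts in replicates 1 and 2, with a log2 ratio of 0.46 (0.32 to 0.61), close to that of Nrp2, and Sema6a had 2020 and 1387 counts and 0.31 (0.21 to 0.41). Those higher in replicate 2 were Nrp1, Plxna2, Plxna4, Plxnb2, Sema3a, Sema3c and Sema3d. Sema3c, with 1992 and 2253 counts, had a log2 ratio of -0.41 (-0.50 to -0.32), and Sema3d, with 148 and 171 counts, -0.44 (-0.77 to -0.12). By class, the summed counts of class 3 had a log2 ratio of -0.27 (-0.33 to -0.21), those of class 4 0.16 (0.11 to 0.21) and those of class 6 0.18 (0.12 to 0.23). Class 5 had 0.13 (0.05 to 0.20). Sema3f, Sema4c and Sema6c lay on the other side of 0 from the sum of their class, each with an interval that included equality. The median log2 ratio was 0.08 for members and -0.01 for all tested genes. TPM and scaled counts gave opposite signs for Sema3b, Sema5a and Sema6c, all of whose counting intervals included equality.

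**Figure D5:**
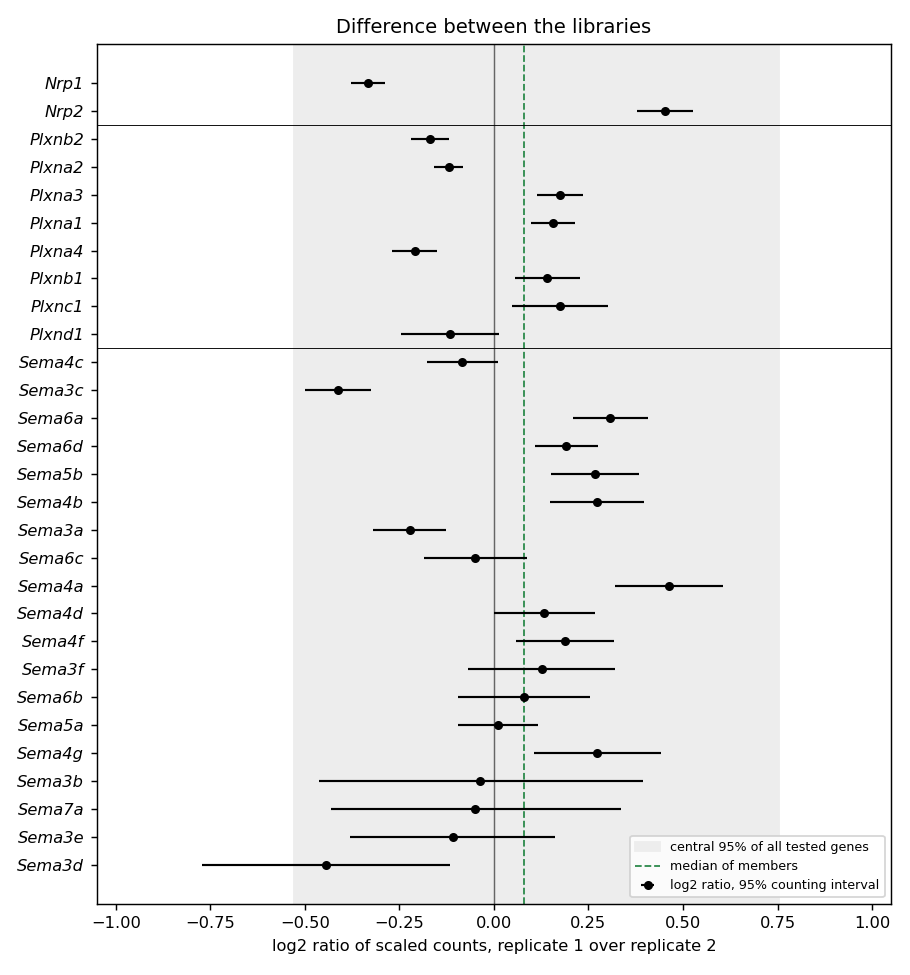
Log2 ratio of scaled counts, replicate 1 over replicate 2, for the 29 members tested, with 95% exact counting intervals; the shaded band is the central 95% of all tested genes, from -0.53 to 0.75, and the dashed line is the members' median of 0.08. Every point lies in the band, with Nrp1 and Nrp2 on opposite sides of 0.

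Cell type markers moved between the pools as well. Summed TPM of radial glia and progenitor markers was 1874 in replicate 1 and 2348 in replicate 2, with 10 of 10 genes higher in replicate 2. Endothelial markers summed to 183 and 216 TPM and microglia markers to 92.3 and 123 TPM, with all 9 genes of each list higher in replicate 2. Neuron markers summed to 4402 and 4005 TPM, with 8 of 10 genes higher in replicate 1, and thalamus markers to 95.9 and 56.9 TPM, with 6 of 6 tested genes higher in replicate 1. Telencephalon markers summed to 1309 and 1491 TPM, with 11 of 12 genes higher in replicate 2, and midbrain and hindbrain markers to 1.53 and 4.84 TPM. Oligodendrocyte lineage markers summed to 70.7 and 59.9 TPM, with 4 of 7 tested genes higher in replicate 1. The part of these shifts in the ratios of the members was not tested, and in bulk tissue fewer cells of a type and less RNA per cell cannot be told apart. Scaling by the spike-ins shifted every gene by the same amount and moved the median of all genes to -0.56. After this shift all 29 members tested were higher in replicate 2, 28 of them with an interval that excluded equality. The share of all genes with such an interval was not computed, so these counts are not a trait of the members. The members' median relative to that of all genes, 0.09, cannot change with scaling.

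The intracellular partners of plexins were present throughout. All 26 listed mediators reached 1 TPM in both libraries and 19 reached 10 TPM, with a median of 65.3 TPM. Among all protein-coding genes 60.7% and 40.9% reached these levels. They were led by Cfl1, the actin-severing protein cofilin, at 2490 and 2461 TPM in replicates 1 and 2. Dpysl2, the collapsin response mediator through which Sema3a signals reach microtubules, had 1219 and 1318 TPM, and its relative Dpysl3 had 864 and 897 TPM. Fes, a tyrosine kinase that binds A-type plexins, was the lowest at 2.18 and 2.79 TPM. None of the 26 was called 2-fold apart between the libraries, where 1.37% of all genes tested were called.

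Other receptors and co-receptors of semaphorins reached 1 TPM in both libraries for 11 of 13 genes and 10 TPM for 7, with a median of 20.4 TPM. The shares of all protein-coding genes at these levels were 60.7% and 40.9%. Cntn2, an axonal adhesion molecule, had 112 and 125 TPM in replicates 1 and 2, Itgb1, the integrin chain that receives Sema7a, had 71.2 and 92.0 TPM, and L1cam, a partner of Nrp1 in the Sema3a receptor, had 91.7 and 70.4 TPM. Timd2, a receptor of Sema4a on immune cells, was the lowest with 0.09 and 0.03 TPM. The VEGF genes were lower than Nrp1, which binds their products. Of 5, 4 reached 1 TPM in both libraries. The highest were Vegfb at 37.2 and 36.0 TPM, Pgf at 5.39 and 4.28 TPM and Vegfa at 2.85 and 2.13 TPM. Vegfd, the lowest at 0.49 and 1.01 TPM, did not reach 1 TPM in replicate 1.

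Of 227843 stretches of 50 bases in the members' GENCODE M21 transcripts, 0 were shared between members. Reads were quantified on GENCODE M4, and stretches shared with genes outside the family were not searched. The effect of shared sequence on read assignment was therefore not tested. Exons of Plxna1, Plxna4, Plxnb1 and Sema4c overlap a gene on the opposite strand and use of strand in counting is not given in the sources used here. Longest was the overlap of 970 bases between Plxna1 and Gm26811, which had 64.5 and 17.7 counts in replicates 1 and 2 beside 5571 and 4250 for Plxna1. A further Sema4d transcript, Sema4d-204, is listed under a separate gene at 4.28 and 3.25 TPM in replicates 1 and 2 and is not in the Sema4d values. With it, Sema4d had 20.5 and 17.6 TPM, above the 18.5 and 15.8 TPM of Plxnb1.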

How the data were processed

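Total RNA of 2 forebrain pools was sequenced, with 1 gene table and 1 transcript table per library. Per the notes deposited with each sample, the authors aligned reads to mm10 and quantified them on GENCODE M4, with aligner and quantification program not given in the sources used here. Deposited expected counts are not normalized, per the file headers. The authors' TPM and FPKM are per kilobase of effective length, per the file headers, and TPM was scaled with the spike-ins inside (5.93% of TPM in replicate 1 and 4.10% in replicate 2). The authors also deposited each transcript's percent of its gene and the bounds of a credibility interval of TPM, per the file headers.

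GENCODE M21 (GRCm38) supplied symbols, types and coordinates by identifier without version, which matched 42462 of 43346 genes, and 184 of 185 transcripts of the members matched, 169 of them with the same length in both releases. TPM was used as deposited. Expected counts were rounded and scaled with edgeR 4.0.16 (TMM) in R 4.3.3, and log2 ratios used a prior count of 0.5. The coefficient of biological variation came from edgeR's common dispersion. Intervals are 95% exact Clopper-Pearson intervals and cover counting error only, since amplified reads are not independent molecules. The SD over 2 libraries is imprecise. Pair ratios used a pseudocount of 0.01 TPM. Other steps used Python 3.11.15, numpy 2.4.6, pandas 2.3.3, scipy 1.17.1 and matplotlib 3.10.9, and the calling procedure was tested on simulated data.

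The members and the lists were chosen with earlier results of these data known. The text names all members, all fixed pairs, and the 3 highest and the lowest gene of each pathway list; marker lists are given as sums and counts. Alternatives covered FPKM, posterior means, TPM over genes only, other minimums, pseudocounts and prior counts, DESeq2 1.42.0 size factors, upper quartile, spike-in and total scaling, and each replicate left out. Coding transcripts alone, and Sema4d with Sema4d-204, were added after seeing the data.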

Additional observations from a re-analysis of the deposited data

How the results depend on the processing

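The count of members at 1 TPM or more in both libraries ran from 26 at a minimum of 2 TPM to 30 at 0.5 TPM, and was 29 in each library alone. At 10 TPM or more it ran from 14 with FPKM to 20, against 19. The median level of 17.9 TPM became 10.4 with FPKM, whose scale differs, and 14.2 on coding transcripts alone, and was 15.8 to 18.5 with either replicate left out. Class 4 over class 3 passed 3 SD on coding transcripts alone, with a log2 ratio of 0.87 ± 0.27. Over all listed transcripts the ratio was 0.51 to 0.88 in single libraries. Sema6a over Plxna4 turned to -0.44 on coding transcripts, and Sema4d over Plxnb1 fell within 3 SD at -0.04 with posterior means; the cause was not tested. With Sema4d-204 added that pair turned to 0.15. Pairs apart numbered 13 with posterior means and 14 under FPKM, both other pseudocounts, coding transcripts and Sema4d-204 added. No member was 2-fold apart under any scaling, count minimum, prior count or posterior mean run; edgeR gave scaling factors and the coefficient of variation, and no test was possible. The members' median log2 ratio was -0.47 with spike-in scaling and 0.05 to 0.13 otherwise. Leading transcripts matched in 23 of 25 members, and in 25 with posterior means, so the differences in Sema3b and Sema4a rest on the maximum likelihood values. No paired analysis was possible because the series has 1 group. Depth limits Plxnb3 and Sema3g, which had under 50 counts, and transcript shares of members with few counts.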
